A study of Mus musculus with 6 samples.

Results

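The 51 genes described here encode proteins that act in the G2 phase of the cell cycle and in mitosis (M phase). They were taken by symbol, with no measured value in the rule, but the list was chosen with earlier results of these data known. They were grouped by role into 9 classes: cyclins, cyclin-dependent kinase (CDK) and their partners (7 genes), kinetochore, centromere and checkpoint (10), spindle motors (4), spindle assembly (12), the anaphase-promoting complex, APC/C (2), cytokinesis (4), chromosome structure and chromatin (8), nuclear envelope (3) and 1 other ubiquitin ligase. All 51 were among the 18478 genes of the deposited table, and 51 of 51 passed the filter on low counts that left 14084 genes for testing. RNA was sequenced from group 2 innate lymphoid cells (ILC2s), tissue lymphocytes that make type 2 cytokines, sorted from the lungs of wild-type mice (WT, n = 3 libraries) and of mice labelled CB2 KO (n = 3), CB2 being the cannabinoid receptor encoded by Cnr2. All 6 libraries came from BALB/c mice aged 6 weeks that had received 3 i.n. injections of 1 µg IL-33, an alarmin that drives ILC2 expansion, and the sorted cells then spent 24 h in culture with the cytokines IL-2 and IL-7, each at 10 ng/mL. No group went without IL-33 or without the cytokine culture, so every value refers to stimulated cells. The labels name neither the deleted part of Cnr2 nor its breeding, and they do not say how many mice gave a library, so the p-values measure the spread between these libraries.

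Entry into mitosis is driven by Cdk1 bound to B-type cyclins, and exit from it by the APC/C, which with Cdc20 and the ubiquitin-conjugating enzyme Ube2c marks cyclin B and securin for destruction. Between entry and exit, motors and microtubule-associated proteins build the spindle, kinetochores attach chromosomes to it under the watch of the spindle checkpoint, and a contractile ring then divides the cell. Many genes of this kind are transcribed together late in the cycle, through a promoter element called the cell cycle genes homology region (CHR). The CHR is bound by the MuvB complex with B-Myb and Foxm1, and often lies beside CCAAT boxes bound by NF-Y. Interleukin-33 is known to make lung ILC2s divide.

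Promoter windows of RefSeq transcripts (build GRCm38.p6, from 250 bases before the start to 50 after it) were present for 45 of the 51 genes. The CHR was searched as TTTGAA or TTCGAA and the CCAAT box as CCAAT, on both strands, so that TTCAAA and ATTGG are the same letters read on the opposite strand. The windows below come from 6 of the 9 genes that had no overlap between the groups and carry CHR letters within the 100 bases before a start, and were picked because CCAAT boxes lie beside the letters (motif letters in capitals, 5′ to 3′ in the direction of transcription).
Hmgb2 (chr8:57511743-57511842, plus strand): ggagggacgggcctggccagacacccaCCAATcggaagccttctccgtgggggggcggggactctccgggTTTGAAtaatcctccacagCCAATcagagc
Ube2c (chr2:164769829-164769928, plus strand): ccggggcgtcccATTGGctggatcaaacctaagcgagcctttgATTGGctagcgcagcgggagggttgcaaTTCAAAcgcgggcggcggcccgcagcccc
Cdk1 (chr10:69352913-69353012, minus strand): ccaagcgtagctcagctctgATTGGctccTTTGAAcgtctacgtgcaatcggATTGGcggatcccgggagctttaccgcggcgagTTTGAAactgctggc
Cks1b (chr3:89418292-89418391, minus strand): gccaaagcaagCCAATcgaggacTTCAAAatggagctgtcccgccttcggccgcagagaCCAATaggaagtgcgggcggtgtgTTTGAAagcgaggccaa
Lbr (chr1:181842402-181842501, minus strand): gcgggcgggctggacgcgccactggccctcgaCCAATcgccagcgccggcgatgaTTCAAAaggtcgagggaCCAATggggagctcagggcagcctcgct
Ckap2l (chr2:129297213-129297312, minus strand): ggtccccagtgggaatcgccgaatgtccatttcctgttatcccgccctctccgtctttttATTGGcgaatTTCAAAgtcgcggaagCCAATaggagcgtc
Each of these 6 stretches holds 2 CCAAT boxes, as chosen. Of the other 3 genes, Ckap5 had 1 CCAAT box in the 100 bases with its CHR letters, and Mki67 and the Tmpo window with CHR letters had 0. Such letters were not limited to these 9 genes. Top2a and Cdc20, which overlapped between the groups, each had 1 CHR match in the same 100 bases, with 3 and 2 CCAAT boxes. In a further 6 members without overlap between the groups, shown as 30 bases around the letters, the CHR lay at or near the start itself, and in Kif20b and Anln it was doubled.
Ccnb2 (chr9:70421533-70421562, minus strand): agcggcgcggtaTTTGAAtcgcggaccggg
Hmmr (chr11:40733412-40733441, minus strand): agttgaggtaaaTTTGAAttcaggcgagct
Cenpf (chr1:189688067-189688096, minus strand): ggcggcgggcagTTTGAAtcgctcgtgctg
Aurka (chr2:172370521-172370550, minus strand): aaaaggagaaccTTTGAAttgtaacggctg
Kif20b (chr19:34922353-34922382, plus strand): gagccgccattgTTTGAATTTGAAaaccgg
Anln (chr9:22389168-22389197, minus strand): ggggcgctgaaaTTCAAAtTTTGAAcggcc
A pair of members is shown for contrast. The window of Ccnb1, the cyclin partner of Cdk1, held 2 CCAAT boxes and no CHR letters in this spelling, although its CPM did not overlap between the groups. A window of Psrc1, whose mean was on the higher side in CB2 KO, held the TTCGAA spelling.
Ccnb1 (chr13:100786487-100786586, minus strand): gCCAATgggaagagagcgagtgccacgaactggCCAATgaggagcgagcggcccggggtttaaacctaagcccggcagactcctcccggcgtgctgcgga
Psrc1 (chr3:108383738-108383837, plus strand): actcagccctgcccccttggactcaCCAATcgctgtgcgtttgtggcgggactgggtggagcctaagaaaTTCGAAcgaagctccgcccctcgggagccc

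CHR letters were in a window of 34 of the 45 genes (75.6%), against 19.2% of all 32851 RefSeq windows and 16.9% of the 9343 tested genes that have one. CCAAT boxes were in 35 of 45 (77.8%), against 37.4% of all windows and 43.6% of those tested genes. Both were in 1 window of 28 of 45 genes (62.2%), against 7.52% of all windows and 7.26% of those tested genes. The CHR lay close to the start: 34 of the 49 matches in members began between 50 bases before and 50 bases after it, in 29 genes. Windows of 1 gene can overlap, and at distinct genome positions these were 32 of 46. Because 14 of the 45 genes had their letters only after the start, the share fell when the 250 bases before it were read alone. The share with CHR letters was then 44.4%, against 17.1% of all windows and 15.1% of those tested genes. The 34 genes with the letters had a median log2 fold change of -0.33 (CB2 KO over WT), with 17 of 34 not overlapping between the groups. The 11 genes without them had a median of -0.29, with 5 of 11 not overlapping. Every non-overlapping gene of both sets was lower in CB2 KO, where 7.2% of all tested genes were lower without overlap. A match of letters is a description of the window and shows neither binding nor use of a site.

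**Figure D1:**
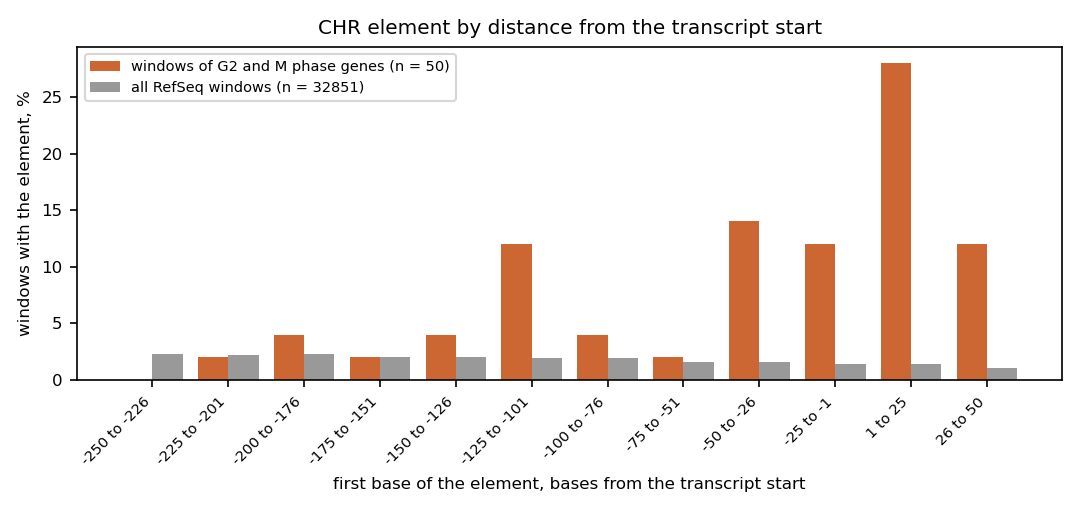
Share of promoter windows with CHR letters (TTTGAA or TTCGAA, either strand) by the distance of their first base from the transcript start, in bins of 25 bases, for the 50 windows of the G2 and M phase genes and for all 32851 RefSeq windows. The tallest bin of the member windows, 28.0%, spans bases 1 to 25 after the start, where 1.43% of all windows have the letters.

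The 6 libraries held between 17141698 and 21621008 estimated counts, and no member had fewer than 113 counts in any library, so counting error weighs most on the least abundant members. Values below are counts scaled to a common library size (counts per 1000000, CPM) on library sizes scaled by the trimmed mean of M-values (TMM), listed in the order of replicates 1 to 3 in each group, and a negative log2 fold change means lower in CB2 KO. Cnr2, the gene named as deleted, was at 9.32, 17.4 and 15.8 CPM in WT and 9.24, 1.60 and 3.84 CPM in CB2 KO (log2 fold change -1.52, SE 0.56, edgeR adjusted p = 0.514). The library labelled CB2 KO replicate 1 was thus close to WT replicate 1 for Cnr2, and it was also set apart from the rest by the first principal component, which held 37.6% of the variance. Its number of detected genes (1 count or more) was 15005, and that of the others 15640 to 16514. Without it the members' median log2 fold change was -0.28 and 46 of 51 were negative, against -0.29 and 46 of 51 with it, and its values for single members are named below where it stands apart. Across all genes, 15 of 14084 passed edgeR's quasi-likelihood test at a Benjamini-Hochberg adjusted p under 0.05 (0.107%).

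The members stood lower in CB2 KO as a body, by a small amount that was even across libraries. Their summed level was 10927, 10887 and 11057 CPM in WT and 8861, 8851 and 9214 CPM in CB2 KO, a mean of 10957 ± 88.8 (SD, n = 3) against 8975 ± 206, or -18.1%. All 3 CB2 KO libraries lay below all 3 WT libraries, and the gap was wide beside the spread within each group. The log2 fold change was negative for 46 of 51 genes (90.2%), where 50% of all tested genes were negative, and its median was -0.29, against -0.0003 over all tested genes. No member passed edgeR's test (0 of 51, where 0.107% of all genes did), and the smallest adjusted p was 0.110, for Hmgb2. At an unadjusted p under 0.05, 24 members were lower and 0 higher, where 4.27% and 4.33% of tested genes were. DESeq2, run as an alternative, called 10 of 51 members lower at an adjusted p under 0.05 and 0 higher, where it called 1.39% of all genes lower and 1.19% higher (2.58% in either direction).

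The 2 groups did not overlap for 24 of the 51 genes (47.1%), always with CB2 KO lower, where 7.2% of all tested genes did so. No member had the 3 CB2 KO libraries above the 3 WT libraries, where 6.91% of tested genes did. Among the 8572 tested genes with a mean CPM within the members' range (12.7 to 626), 7.77% had CB2 KO below WT without overlap. The 24 genes comprised all 10 that DESeq2 called, and differed by 1 gene from the 24 with an unadjusted p under 0.05, which held Smc4 in place of Cdca3. Each CB2 KO library showed the shift by itself: 44, 45 and 46 of the 51 genes were below the WT mean in CB2 KO replicates 1, 2 and 3, with median log2 ratios to it of -0.34, -0.31 and -0.22. Within CB2 KO the lowest library was replicate 1 for 20 members, replicate 2 for 17 and replicate 3 for 14, so no single library carried the low values. The more abundant 25 members and the other 26 had nearly the same medians, -0.29 and -0.31. In bulk RNA, fewer cells in G2 and M phase and less of each RNA per cell cannot be told apart.

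**Figure D2:**
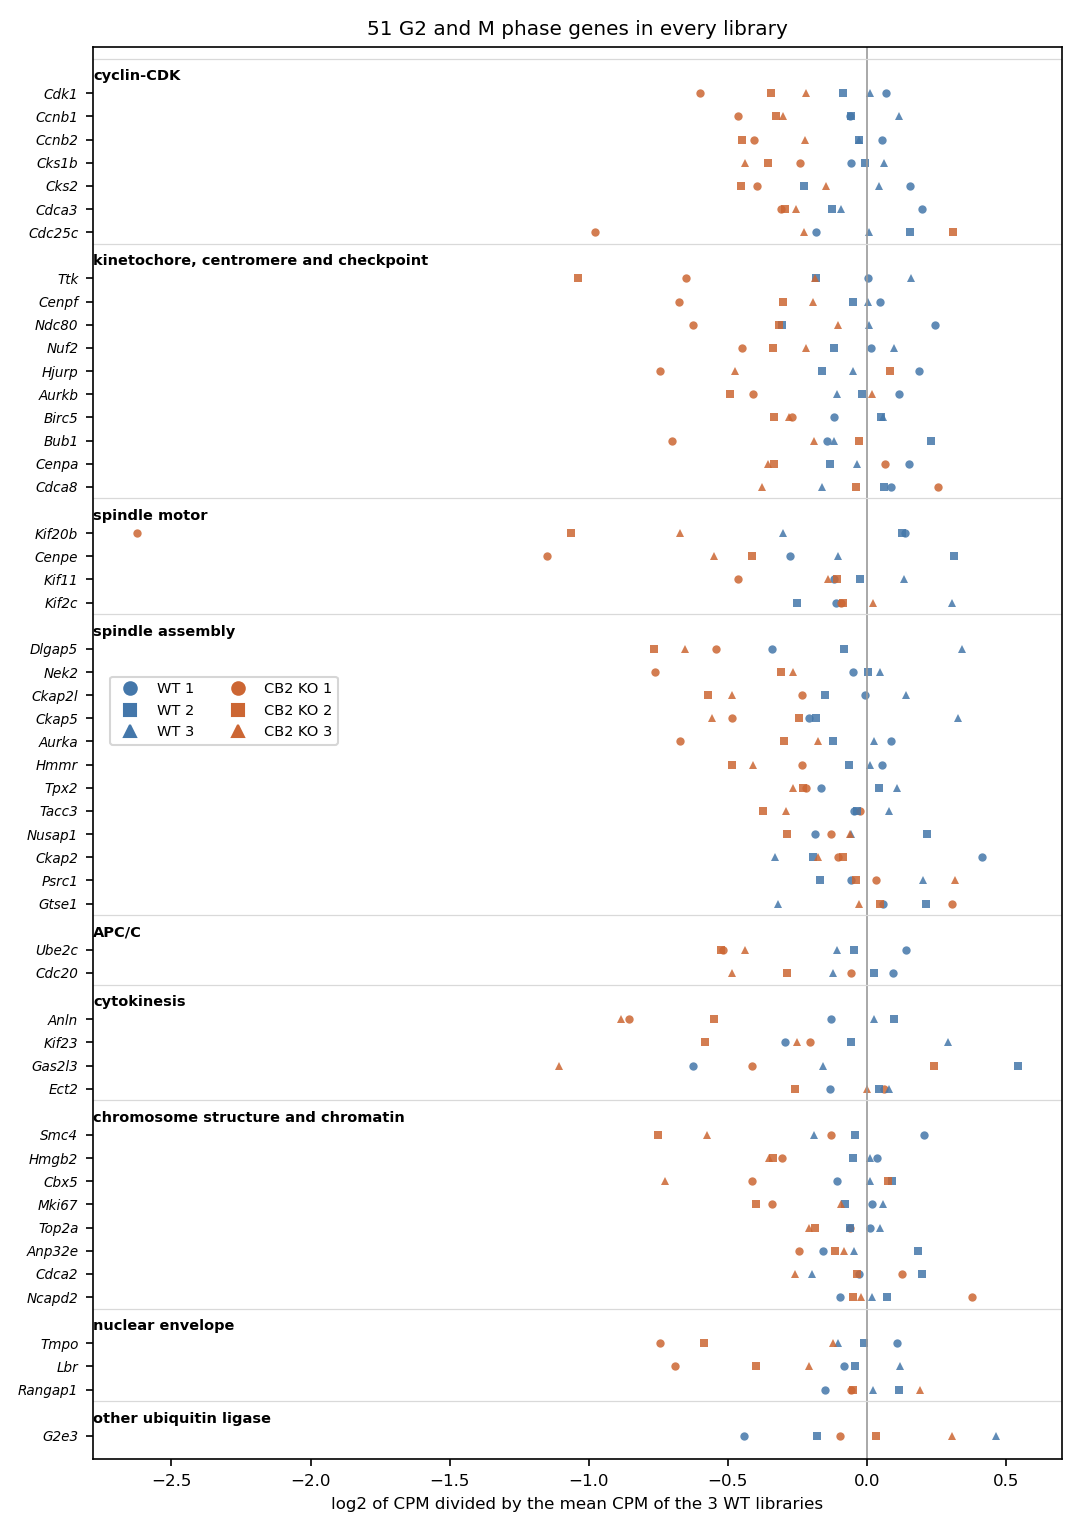
Each of the 51 genes in every library, as log2 of its CPM over the mean of the 3 WT libraries, by class and ordered within a class by fold change (blue, WT; orange, CB2 KO; symbols mark replicates 1 to 3). Most orange points lie left of 0, with Kif20b in the library labelled CB2 KO replicate 1 farthest out, and the points of Psrc1, Gtse1, Ncapd2, Rangap1 and G2e3 straddle 0.

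The cyclin-CDK class held the mitotic kinase and its closest partners, and all 7 had a negative fold change (median -0.34). Of these, 5 were without overlap, where 7.2% of all tested genes were below WT without overlap. Its summed level was 1234, 1165 and 1236 CPM in WT and 908, 957 and 997 CPM in CB2 KO. The 3 CB2 KO libraries were all below the lowest WT library. Ccnb1, cyclin B1, was at 253, 253 and 286 CPM in WT and 191, 210.3 and 214 CPM in CB2 KO (log2 fold change -0.36, SE 0.091, edgeR adjusted p = 0.351). The groups were apart, and the library labelled CB2 KO replicate 1 was the lowest. Cks1b, a small subunit that docks on CDKs, was at 247, 256 and 269 CPM in WT and 218, 201 and 190.0 CPM in CB2 KO (log2 fold change -0.34, SE 0.086, edgeR adjusted p = 0.351). Here CB2 KO replicate 3 was lowest, and again no CB2 KO value reached a WT value. Ccnb2, cyclin B2, was at 233, 220.2 and 220.4 CPM in WT and 169.6, 164 and 192 CPM in CB2 KO (log2 fold change -0.36, SE 0.093, edgeR adjusted p = 0.352). WT replicates 2 and 3 were almost equal, and all CB2 KO values were under them. Cdk1 itself, the kinase, was at 236, 212 and 226 CPM in WT and 148, 177 and 193 CPM in CB2 KO (log2 fold change -0.38, SE 0.11, edgeR adjusted p = 0.446). All 3 CB2 KO libraries were below the lowest WT value, with replicate 1 the farthest down, and the fold change was -0.28 with that library left out. Cdca3, a trigger of mitotic entry that helps to degrade Wee1, had 108 to 112 CPM in CB2 KO against 123 to 153 in WT, also without overlap (log2 fold change -0.29, SE 0.13, edgeR adjusted p = 0.583). DESeq2 called Ccnb1 (adjusted p = 0.00343), Ccnb2 (0.00597) and Cks1b (0.00543) lower. The groups overlapped for Cks2, the second docking subunit (-0.34), and for Cdc25c, a phosphatase that activates Cdk1. Cdc25c had 29.3, 37.0 and 33.4 CPM in WT and 16.9, 41.1 and 28.4 CPM in CB2 KO, with CB2 KO replicate 2 above every WT library and replicate 1 below all others, and its fold change of -0.19 turned to 0.093 when that replicate 1 was left out.

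In the kinetochore, centromere and checkpoint class all 10 genes had a negative fold change (median -0.31). The groups did not overlap for 4 of them, where 7.2% of all tested genes were below WT without overlap. The class summed to 1782, 1652 and 1672 CPM in WT and 1371, 1449.6 and 1419 CPM in CB2 KO. The highest CB2 KO library was thus below the lowest WT library, but single genes spread more within CB2 KO (median coefficient of variation 18.9%) than within WT (9.70%). Birc5 (survivin), a subunit of the chromosomal passenger complex that corrects faulty attachments, was at 294, 329.9 and 331 CPM in WT and 264, 252 and 262 CPM in CB2 KO (log2 fold change -0.29, SE 0.079, edgeR adjusted p = 0.384). Its 3 CB2 KO values were close together and clear of WT, and DESeq2 called it lower (adjusted p = 0.00700). Cenpf, a large protein of the outer kinetochore, was at 132, 123 and 128 CPM in WT and 80.0, 104 and 112 CPM in CB2 KO (log2 fold change -0.38, SE 0.14, edgeR adjusted p = 0.519). The WT values were tight, and the library labelled CB2 KO replicate 1 was the lowest by a wide margin; the fold change was -0.25 with it left out. Ttk (Mps1), the kinase that starts checkpoint signalling, was at 54.6, 47.9 and 60.7 CPM in WT and 34.6, 26.5 and 47.8 CPM in CB2 KO (log2 fold change -0.60, SE 0.24, edgeR adjusted p = 0.562). Its highest CB2 KO value lay just under its lowest WT value. Nuf2, a subunit of the Ndc80 complex that grips microtubules, had 78.0 to 91.6 CPM in CB2 KO against 98.1 to 114 in WT (log2 fold change -0.33, SE 0.13, edgeR adjusted p = 0.536).

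The other 6 genes of the class overlapped between the groups. Hjurp, the chaperone that loads the centromeric histone Cenpa, was at 299.7, 236 and 255 CPM in WT and 157, 279 and 189.6 CPM in CB2 KO (log2 fold change -0.33, SE 0.21, edgeR adjusted p = 0.715). CB2 KO replicate 2 lay inside the WT range and the other pair below it, and the fold change ranged from -0.61 to -0.16 with each library left out, the nearest to 0 with CB2 KO replicate 1 left out and the lowest with CB2 KO replicate 2 left out. Cdca8 (borealin), another passenger subunit, was at 217, 213 and 182 CPM in WT and 244, 199 and 157 CPM in CB2 KO (log2 fold change -0.027, SE 0.16, edgeR adjusted p = 0.977). The library labelled CB2 KO replicate 1 was the highest of all 6 and replicate 3 the lowest, so the groups were interleaved. The fold changes of Ndc80, Cenpa, Bub1 (a checkpoint kinase) and Aurkb (the passenger kinase) were -0.34, -0.19, -0.28 and -0.29. None of these 4 passed even the unadjusted test. With CB2 KO replicate 1 left out the values of Ndc80, Cenpa and Bub1 were -0.21, -0.34 and -0.10.

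All 4 spindle motor genes had a negative fold change, with a class median of -0.45, and their sum was 576, 650.0 and 633 CPM in WT and 361, 497 and 505 CPM in CB2 KO. The library labelled CB2 KO replicate 1 was far below the other CB2 KO libraries, which were themselves below WT. With that library left out the class median was -0.30, and over all libraries left out in turn it ranged from -0.57 to -0.30. Kif20b, a kinesin of late mitosis and midbody maturation, was at 124, 123 and 91.3 CPM in WT and 18.3, 53.9 and 70.8 CPM in CB2 KO (log2 fold change -1.28, SE 0.36, edgeR adjusted p = 0.421). This was the largest fold change of the 51 genes, and the library labelled CB2 KO replicate 1 was far below the rest; with that library left out it was -0.88. Cenpe, the kinesin that carries chromosomes to the spindle equator, was at 134, 202 and 151 CPM in WT and 73.1, 122 and 111 CPM in CB2 KO (log2 fold change -0.67, SE 0.23, edgeR adjusted p = 0.474). Again all CB2 KO values were below WT, replicate 1 lowest, and the fold change without it was -0.48. Kif11 (Eg5), which pushes spindle poles apart, was at 230.0, 246 and 274 CPM in WT and 181, 232 and 227 CPM in CB2 KO (log2 fold change -0.23, SE 0.12, edgeR adjusted p = 0.664). CB2 KO replicate 2 reached the lowest WT value, and the fold change was -0.12 with the library labelled CB2 KO replicate 1 left out. Kif2c (MCAK), a kinesin that depolymerises microtubules at centromeres, was at 87.7, 79.7 and 117 CPM in WT and 88.9, 89.3 and 96.2 CPM in CB2 KO (log2 fold change -0.042, SE 0.17, edgeR adjusted p = 0.964). All CB2 KO values lay inside the WT range.

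Spindle assembly was the largest class, with 10 of 12 fold changes negative (median -0.30). It had 7 genes without overlap, where 7.2% of all tested genes were below WT without overlap. It summed to 2072, 2135 and 2262 CPM in WT and 1846, 1742 and 1784 CPM in CB2 KO. All CB2 KO sums were under the WT sums. Hmmr, which focuses spindle poles, was at 198, 182 and 192 CPM in WT and 162, 136 and 143 CPM in CB2 KO (log2 fold change -0.37, SE 0.10, edgeR adjusted p = 0.389). No CB2 KO library reached WT, and DESeq2 called the gene lower (adjusted p = 0.0158). Ckap2l (radmis), a spindle-pole protein, was at 182, 165 and 202 CPM in WT and 156, 123 and 131 CPM in CB2 KO (log2 fold change -0.42, SE 0.13, edgeR adjusted p = 0.452). Here the library labelled CB2 KO replicate 1 was the highest of its group, yet still below WT. Tpx2, which activates Aurora A on spindle microtubules, was at 298, 345 and 360.3 CPM in WT and 287, 285 and 278 CPM in CB2 KO (log2 fold change -0.23, SE 0.088, edgeR adjusted p = 0.531). The 3 CB2 KO values were nearly equal, and the lowest WT value was close above them. Aurka, the kinase that Tpx2 activates, had 122 to 172 CPM in CB2 KO against 179 to 207 in WT (log2 fold change -0.37, SE 0.14, edgeR adjusted p = 0.524), and a fold change of -0.24 with the library labelled CB2 KO replicate 1 left out. Dlgap5 (HURP), a stabiliser of kinetochore fibres, was at 84.8, 102 and 136 CPM in WT and 73.8, 63.2 and 68.4 CPM in CB2 KO (log2 fold change -0.64, SE 0.20, edgeR adjusted p = 0.452). Its WT values were spread widely, but the lowest was above all of CB2 KO, and DESeq2 called it lower (adjusted p = 0.0392).

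Nek2, a centrosome kinase, and Ckap5 (chTOG), a microtubule polymerase, also had no overlap, with fold changes of -0.43 and -0.41, and -0.28 for Nek2 with CB2 KO replicate 1 left out. Tacc3, the partner of chTOG on spindle fibres, was at 309.8, 313 and 338 CPM in WT and 314, 247 and 261 CPM in CB2 KO (log2 fold change -0.22, SE 0.11, edgeR adjusted p = 0.621). The library labelled CB2 KO replicate 1 lay among the WT values and the other CB2 KO libraries below them. Nusap1 and Ckap2, both microtubule-binding proteins, overlapped (-0.16 and -0.13). Psrc1, a spindle protein also known as DDA3, was at 41.1, 38.1 and 49.2 CPM in WT and 43.8, 41.6 and 53.4 CPM in CB2 KO (log2 fold change 0.11, SE 0.19, edgeR adjusted p = 0.918). Gtse1, which restrains MCAK in mitosis, was at 165, 183 and 127 CPM in WT and 195, 163 and 155 CPM in CB2 KO (log2 fold change 0.11, SE 0.16, edgeR adjusted p = 0.899). These were the only members of the class with a positive fold change, and both overlapped.

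**Figure D3:**
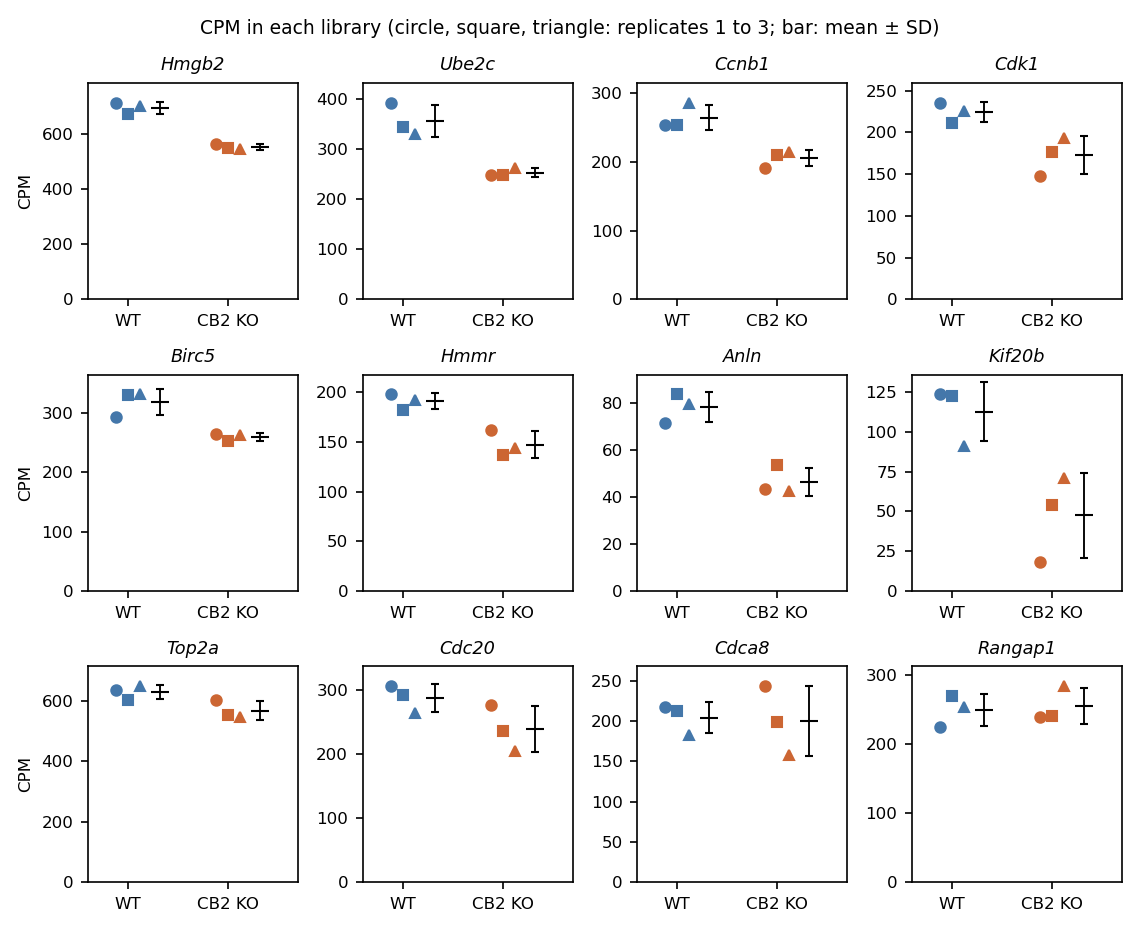
CPM of 12 members in each library (circle, square and triangle, replicates 1 to 3; bar, mean ± SD, n = 3; each vertical axis starts at 0). Hmgb2, Ube2c, Ccnb1, Cdk1, Birc5, Hmmr, Anln and Kif20b show CB2 KO below WT with no overlap, and Top2a, Cdc20, Cdca8 and Rangap1 overlap.

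Of the APC/C pair, Ube2c was apart between the groups and Cdc20 was not. Ube2c, the enzyme that starts ubiquitin chains on APC/C substrates, was at 393, 346 and 331 CPM in WT and 249, 248 and 263 CPM in CB2 KO, or 357 ± 32.8 against 254 ± 8.36 CPM (SD, n = 3 each). All CB2 KO libraries were below all WT libraries by more than the spread in either group, and WT replicate 1 was the highest. Its fold change had the second smallest p of the members (log2 fold change -0.50, SE 0.088, edgeR adjusted p = 0.156), and DESeq2 called it lower (adjusted p = 5.42e-06). Cdc20, the co-activator that brings substrates to the APC/C and the target of the checkpoint, was at 306, 292 and 264 CPM in WT and 276, 235 and 205 CPM in CB2 KO (log2 fold change -0.27, SE 0.12, edgeR adjusted p = 0.610). The library labelled CB2 KO replicate 1 lay inside the WT range, and replicates 2 and 3 below it.

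In cytokinesis 1 of 4 genes was apart between the groups, where 7.2% of all tested genes were below WT without overlap. Anln (anillin), the scaffold of the contractile ring, was at 71.4, 83.6 and 79.4 CPM in WT and 43.2, 53.3 and 42.4 CPM in CB2 KO, or 78.1 ± 6.19 against 46.3 ± 6.09 CPM. Every CB2 KO library was well below the lowest WT library (log2 fold change -0.74, SE 0.16, edgeR adjusted p = 0.276; DESeq2 adjusted p = 0.000212). Kif23 (MKLP1), the motor of the centralspindlin complex that marks the division plane, was at 99.0, 117 and 148 CPM in WT and 105, 81.0 and 102 CPM in CB2 KO (log2 fold change -0.33, SE 0.19, edgeR adjusted p = 0.679). WT replicate 3 was high and the rest overlapped. Ect2, the exchange factor that switches on RhoA at that plane, was at 129, 145 and 149 CPM in WT and 147, 118 and 141 CPM in CB2 KO (log2 fold change -0.06, SE 0.12, edgeR adjusted p = 0.931). Its groups were interleaved. Gas2l3, a cytoskeletal linker of the late midzone, was at 9.18, 20.6 and 12.7 CPM in WT and 10.6, 16.8 and 6.57 CPM in CB2 KO (log2 fold change -0.28, SE 0.46, edgeR adjusted p = 0.909). It was the least abundant member, WT and CB2 KO each spread over more than the difference, and no direction could be read. The class median was -0.31, and it ranged from -0.51 to -0.20 when each library was left out in turn.

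Chromosome structure and chromatin had the smallest negative class median, -0.21, with 7 of 8 fold changes negative. In it 2 genes were without overlap, where 7.2% of all tested genes were below WT without overlap. The class summed to 2873, 2880.1 and 2836 CPM in WT and 2588, 2378 and 2422 CPM in CB2 KO. All CB2 KO sums were again below WT. Hmgb2, a DNA-bending protein of dividing cells and the most abundant member in CPM, was at 715, 674 and 703 CPM in WT and 564, 552 and 546 CPM in CB2 KO, or 697 ± 21.3 against 554 ± 9.16 CPM. The groups were far apart for the spread within them, and no library stood out. It had the smallest p of the 51 genes (log2 fold change -0.33, SE 0.053, edgeR adjusted p = 0.110; DESeq2 adjusted p = 4.98e-09). Mki67, the source of the Ki-67 proliferation antigen and a coat of mitotic chromosomes, was at 344, 322 and 353 CPM in WT and 268, 257 and 318 CPM in CB2 KO (log2 fold change -0.28, SE 0.10, edgeR adjusted p = 0.488). CB2 KO replicate 3 was just under the lowest WT library. Top2a, the topoisomerase that untangles sister chromatids, was at 635, 603 and 650.5 CPM in WT and 604, 553 and 545 CPM in CB2 KO (log2 fold change -0.15, SE 0.064, edgeR adjusted p = 0.583). WT replicate 2 and the library labelled CB2 KO replicate 1 were level, and the other CB2 KO libraries were lower.

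The class held 2 condensin subunits, whose fold changes had opposite signs, and the difference between them was not tested. Smc4, the ATPase core, was at 392, 330.5 and 298 CPM in WT and 311, 202 and 228 CPM in CB2 KO (log2 fold change -0.46, SE 0.18, edgeR adjusted p = 0.531). CB2 KO replicates 2 and 3 were below WT, and the library labelled CB2 KO replicate 1 was inside it. Ncapd2, a regulatory subunit of condensin I, was at 200.1, 225 and 217 CPM in WT and 278, 207 and 211 CPM in CB2 KO (log2 fold change 0.12, SE 0.13, edgeR adjusted p = 0.861). Only the library labelled CB2 KO replicate 1 was above the WT range, and the fold change was -0.034 when it was left out. The histone chaperone Anp32e, the heterochromatin protein Cbx5 (HP1 alpha) and Cdca2 (Repo-Man), a phosphatase adaptor, all overlapped, with fold changes of -0.15, -0.29 and -0.047.

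Among the nuclear envelope genes, Lbr and Tmpo were apart between the groups. Lbr, the lamin B receptor of the inner membrane, was at 536, 551 and 617 CPM in WT and 352, 431 and 492 CPM in CB2 KO (log2 fold change -0.42, SE 0.12, edgeR adjusted p = 0.446). All CB2 KO libraries were below WT, and DESeq2 called it lower (adjusted p = 0.0259). The library labelled CB2 KO replicate 1 was the lowest, and with it left out the fold change was -0.30. Tmpo, which encodes the lamina-associated LAP2 proteins, was at 596, 549 and 514 CPM in WT and 331, 368 and 508 CPM in CB2 KO (log2 fold change -0.47, SE 0.15, edgeR adjusted p = 0.469). CB2 KO replicate 3 was just below the lowest WT library, and the other pair far below. With CB2 KO replicate 1 left out the fold change was -0.34. Rangap1, the GTPase activator that sits at the nuclear pore and at kinetochores, was at 225, 270.4 and 254 CPM in WT and 239.9, 241 and 285 CPM in CB2 KO (log2 fold change 0.03, SE 0.11, edgeR adjusted p = 0.963). CB2 KO replicate 3 lay above the WT range and the other pair inside it. The groups also overlapped for G2e3, a ubiquitin ligase of G2 cells, at 25.2, 30.2 and 47.2 CPM in WT and 31.9, 35.0 and 42.2 CPM in CB2 KO (log2 fold change 0.11, SE 0.28, edgeR adjusted p = 0.946).

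The members lie on many chromosomes, and 3 share chromosome 4 with Cnr2: Cdca8, Cdc20 and Kif2c, at 10.956, 17.458 and 18.713 Mb from it (mm10). All 3 overlapped between the groups, with fold changes of -0.027, -0.27 and -0.042, and the 24 genes that did not overlap lie on other chromosomes. Of the 874 tested genes on chromosome 4, 9.50% were below WT without overlap, against 7.2% of all tested genes. EdgeR called 6 genes lower on chromosome 4, of 9 called lower in all. A part of linkage to Cnr2 in the members' values was not tested.

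**Figure D4:**
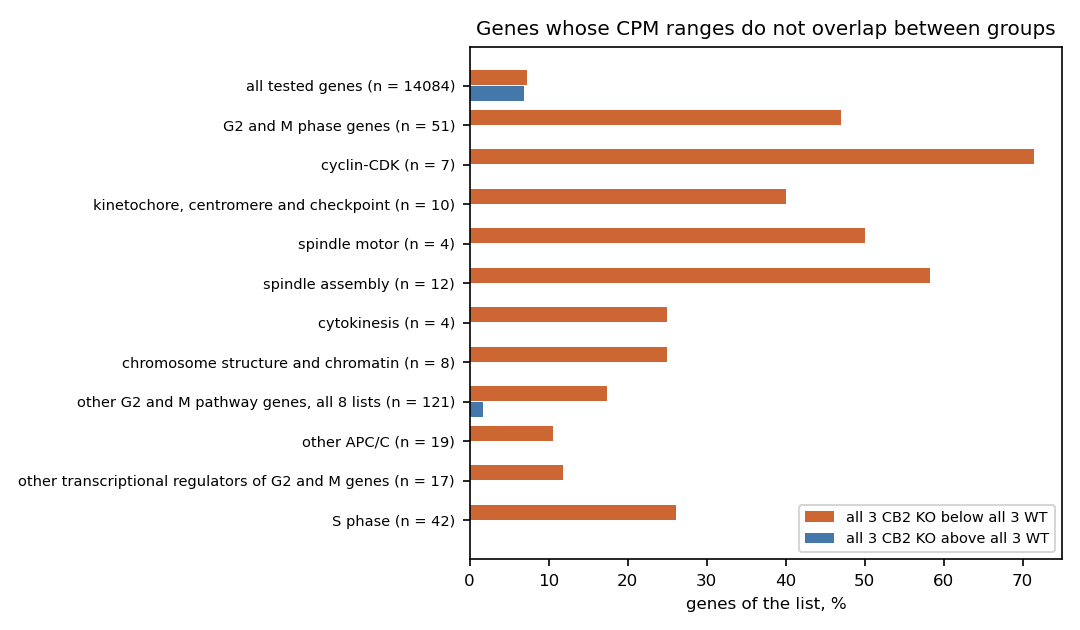
Percent of genes in each list with all 3 CB2 KO libraries below all 3 WT libraries (orange) or above them (blue), for all tested genes, for the 51 members and their classes of at least 4 genes, and for other cell-cycle lists. The orange bar is 7.2% for all tested genes and 47.1% for the members, and a blue bar is seen only for all tested genes and for the other G2 and M pathway genes, where it stands for 2 genes.

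Levels between genes were compared as CPM per kilobase of merged exon (GENCODE M21). In WT, Hmgb2 and Cks1b were the highest members, at 232 and 229 CPM per kb, followed by Cdc20, Ccnb2 and Ube2c at 154, 147 and 137. Ccnb1 was at 62.6, Cdk1 at 45.5 and Mki67 at 33.8 CPM per kb, and the lowest members were Cdc25c, G2e3 and Gas2l3 at 6.75, 4.33 and 2.01. The order was close to the same in CB2 KO, where the first 3 and the last pair of genes kept their ranks. Reads assigned to pseudogene copies, described next, are not in these levels. With such copies added, the WT means were 1484 CPM for Hmgb2 and 392 CPM for Ccnb1, against 697 and 264 CPM without them.

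Several members have processed pseudogenes with nearly the same letters, so reads may be split between them and the parent gene. Gm4739, a retrocopy 99.7% identical to Hmgb2 over 633 bases, held 17213, 15359 and 13950 estimated counts in WT and 12669, 13483 and 10504 in CB2 KO, about as many as Hmgb2. With 4 such copies added, Hmgb2 had 1521, 1429 and 1503 CPM in WT and 1198, 1194 and 1161 CPM in CB2 KO (log2 fold change -0.33, SE 0.045, edgeR adjusted p = 0.0673). The groups stayed apart by the same fold. Ccnb1 has a copy that is 99.2% identical over 1287 bases, and with 3 copies added it had a fold change of -0.35 (edgeR adjusted p = 0.351). Of the 10 members with listed copies, none passed the test with them added, and the count of members without overlap was 24 as before. Whether reads were assigned by strand is not stated in the sources, so the exons that Nusap1 shares with Oip5, Tacc3 with Tmem129, Cdc20 with Elovl1, Rangap1 with Zc3h7b, Cdca8 with 9930104L06Rik, Lbr with Dnah14, Cdc25c with Gm3550, Nek2 with Gm38037 and Ube2c with Tnnc2 on the opposite strand may hold reads of either gene. Oip5 had 491 to 521 counts in WT and 474 to 764 in CB2 KO, and Tmem129 1023 to 1695 and 546 to 942.

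The other genes of the same machinery were taken from 8 lists of 121 genes in all, none of them members. They had 89 of 121 negative fold changes (73.6%) and a median of -0.17, with 21 genes below WT without overlap (17.4%, where 7.2% of all tested genes were) and 2 above (where 6.91% were). None passed edgeR's test. At an unadjusted p under 0.05, 20 were lower and 0 higher, where 4.27% and 4.33% of all genes were, and DESeq2 called 6 lower and 0 higher, where it called 1.39% and 1.19%. Polo-like kinase Plk1, which acts with Cdk1 at entry, was at 205, 213 and 249.6 CPM in WT and 131, 127 and 193 CPM in CB2 KO (log2 fold change -0.58, SE 0.17, edgeR adjusted p = 0.449). Cyclin A2 (Ccna2), of S and G2 phase, was at 319, 302 and 306 CPM in WT and 240.5, 216 and 282 CPM in CB2 KO (log2 fold change -0.34, SE 0.11, edgeR adjusted p = 0.452). Both were without overlap. The kinase list as a whole was more mixed than these genes, with 8 of 12 negative, a median of -0.16 and 3 of 12 below WT without overlap, and with Mastl, Ensa, Bora and Pkmyt1 at 0.51, 0.33, 0.27 and 0.05. In the kinetochore list (29 of 38 negative, median -0.15) the lowest p-values were those of Knl1, the checkpoint platform of the outer kinetochore (log2 fold change -0.93, SE 0.20, edgeR adjusted p = 0.271), Bub1b, the BubR1 checkpoint protein (-0.45), and Mad1l1, the Mad1 protein (-0.89). The motor list (7 of 9 negative, median -0.45) was led by Kif22, Kif4 and Kif20a (-0.60, -0.54 and -0.33), of which Kif20a overlapped between the groups. With the library labelled CB2 KO replicate 1 left out, these fold changes were -0.44, -0.37 and -0.24. The list median ranged from -0.54 to -0.32 with each library left out in turn.

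Cytokinesis regulators were led by Racgap1, the partner of Kif23 in centralspindlin, at 239.9, 284 and 256 CPM in WT and 140.3, 187 and 177 CPM in CB2 KO (log2 fold change -0.63, SE 0.13, edgeR adjusted p = 0.251), and by the midbody protein Cep55 (-0.56) and the citron kinase Cit (-0.36). Racgap1 was without overlap, and all 5 genes of the list were negative. The APC/C subunits and regulators had a median close to that of all genes, -0.071 over 19 genes, with 2 of 19 below WT without overlap (10.5%, near the 7.2% of all tested genes), led by Anapc5, Cdc27 and Espl1 (separase) at -0.28, -0.42 and -0.56. The spindle list (9 of 15 negative) had 1 of 15 genes below WT without overlap, Haus3 (6.67%, near the 7.2% of all tested genes). Its smallest p-values were at the augmin subunits Haus4, Haus3 and Haus7 (-0.44, -0.43 and -0.72). Augmin had no common direction: Haus8 and Haus1 (1.07 and 0.33), named after their values were seen, were the 2 genes above WT without overlap. Haus5 was also positive (0.15). Haus8 was at 13.0, 20.3 and 21.3 CPM in WT and 66.2, 22.8 and 23.2 CPM in CB2 KO. With the library labelled CB2 KO replicate 1 left out, the fold change was 0.36 for Haus8 and -0.37 for Haus7. The condensin list (4 of 6 negative) was led by Ncaph, Ncapg2 and Ncaph2 (-0.40, -0.31 and -0.13). Cdc25b, a phosphatase that primes Cdk1, was the gene with the third smallest p of the kinase list, after Plk1 and Ccna2 (-0.63).

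Of the transcription factors and MuvB subunits that act on G2 and M promoters, 14 of 17 had negative fold changes (median -0.19). Only 2 of 17 were below WT without overlap (11.8%, near the 7.2% of all tested genes). In edgeR 1 of 17, Foxm1, had an unadjusted p under 0.05, and DESeq2 called 0. Foxm1, the forkhead factor of late-cycle genes, was at 76.4, 118 and 98.7 CPM in WT and 42.8, 77.8 and 64.0 CPM in CB2 KO (log2 fold change -0.66, SE 0.25, edgeR adjusted p = 0.546). CB2 KO replicate 2 lay just above the lowest WT library and the others below it, and the fold change was -0.45 with CB2 KO replicate 1 left out. Mybl2 (B-Myb) was at 101, 98.7 and 94.9 CPM in WT and 89.5, 97.9 and 94.9 CPM in CB2 KO (log2 fold change -0.063, SE 0.11, edgeR adjusted p = 0.918), and its groups overlapped in a narrow range. E2f3 and the MuvB subunit Lin37 followed Foxm1 by p (-0.60 and -0.38).

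Some marker lists also differed between the groups, and others overlapped. The ILC2 list was present in full (10 of 10 genes). It summed to 12218 to 13509 CPM in WT and 12625 to 15033 in CB2 KO, so its sums overlapped. Il5 made up most of each sum, at 6972, 7186 and 7871 CPM in WT and 10015, 7888 and 9160 CPM in CB2 KO. The sums thus mainly follow that gene. Of the list, Gata3, Il7r, Il2ra, Klrg1, Icos and Thy1 were below WT without overlap (where 7.2% of all tested genes were). Il5 was above WT without overlap (where 6.91% were), and Il1rl1, Rora and Il13 overlapped. Of 6 macrophage and monocyte markers, 4 were in the table, summing to 1.68 to 50.04 CPM in WT and 137 to 162 in CB2 KO, with Lyz2 and Chil3 above WT without overlap. Chil3 alone made up most of the CB2 KO sums, at 143, 108 and 135 CPM, while Csf1r and Mrc1 overlapped between the groups. The 6 mast cell and basophil markers summed to 17.5 to 28.3 CPM and 41.4 to 86.9 CPM, with Tpsb2, Mcpt8 and Fcer1a above WT without overlap. The sums of the 4 listed T cell markers of 6 were 11.2 to 17.5 CPM and 28.0 to 32.4 CPM, with Cd3g above. Cd3g made up most of each sum, at 9.60, 17.2 and 15.1 CPM in WT and 25.6, 28.9 and 23.9 CPM in CB2 KO. Cd3d, Cd3e and Trac overlapped between the groups. The NK cell, ILC3 and eosinophil lists stayed under 5 CPM in every library, and the summed B cell, epithelial and endothelial lists overlapped between the groups. The B cell gene Cd79a had 24, 14 and 4 counts in WT and 0 in each CB2 KO library, where 0 allows up to 3 counts. The part of any other cells in the differences of the G2 and M phase genes was not tested.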

How the data were processed

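Total RNA of sorted lung ILC2s was sequenced in 6 libraries, 3 per group, grouped by the sample titles. Per the submitters' processing notes, the tools were CASAVA 1.8.2, STAR 3.5.3 and Partek, with build mm10; their settings are not given in the sources used here. The deposited table holds estimated counts per gene, made by the authors, which need not be whole and were rounded here, and a normalized signal, which per the file headers is the authors' own scaling of the same counts and was used only as an alternative. Every listed gene has at least 10 counts in all, so the table was filtered before it was deposited. Counts were tested with edgeR 4.0.16 (R 4.3.3): TMM scaling, filterByExpr, a robust quasi-likelihood fit of CB2 KO against WT over all 14084 genes, and Benjamini-Hochberg adjustment over all of them at 0.05. The standard error is the log2 fold change divided by the root of F. Alternatives were other scalings, no filter, the legacy quasi-likelihood variant, DESeq2 1.42.0, limma 3.58.1 (voom, and on log2 of the signal), a replicate block, and leaving out each library. Adding pseudogene copies (blastn 2.17.0, at least 90% identity over 200 bases) was chosen after seeing the data. Coordinates of all 51 members were equal to those of GENCODE M21.

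The members, classes and other lists were chosen with earlier results of these data known. All 51 members could be named. Values in each library were due for the pair with the smallest p and the pair with the highest mean CPM in each class, for every gene of classes of up to 4 genes, and for members on the chromosome of Cnr2; some others were added after their values were seen (Cdk1, Ccnb2, Cdc25c, Ttk, Dlgap5, Psrc1, Gtse1, Smc4 and Ncapd2). From each other cell-cycle list, up to 3 genes with the smallest p were named, besides Plk1, Ccna2, Foxm1 and Mybl2.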

Additional observations from a re-analysis of the deposited data

How the results depend on the processing

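With 3 libraries per group and 4 residual degrees of freedom, the number of genes past the threshold moved with the test: 15 in the main analysis, 363 with DESeq2, 3 with the replicate block, and 3 to 8 with each library left out in turn. No member was called under any of these except DESeq2, which called 10. Replicate numbers were treated as names: same-numbered libraries deviated together with correlations of only 0.0737, 0.031 and 0.0199; with the replicate block 21 members were lower at an unadjusted p under 0.05. The number of members with a negative fold change was 43 to 46 with a library left out. The members' median ranged from -0.34 (without WT replicate 2) to -0.28 with each library left out, that of the cytokinesis class from -0.51 to -0.20 and that of the chromosome structure and chromatin class from -0.25 to -0.16. Among the other lists, the spindle assembly median ranged from -0.29 to -0.12 and that of cytokinesis from -0.60 to -0.16. Some single genes turned in direction with a library left out, and their fold changes then ranged from -0.58 to 0.093 for Cdc25c, -0.19 to 0.11 for Cdca8, -0.15 to 0.12 for Kif2c, -0.26 to 0.14 for Ckap2, -0.017 to 0.23 for Gtse1, -0.13 to 0.034 for Ect2, -0.69 to 0.11 for Gas2l3, -0.034 to 0.20 for Ncapd2, -0.14 to 0.062 for Cdca2, -0.053 to 0.093 for Rangap1 and -0.083 to 0.39 for G2e3. All of these overlapped between the groups. CHR letters were in 44.4% of members with the 250 bases before the start alone. For these values, the cause was not tested beyond the fewer libraries or bases used. Over all settings, 1245 values of single genes kept direction and side of the threshold, 19 passed it under DESeq2 and 16 turned, each of these with a library left out.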

Other observations

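Genes of S phase, in which DNA is copied before G2, were placed on the same side. The log2 fold change was negative in 31 of 42 S phase genes, with a median of -0.20, and 11 lay below WT without overlap (26.2%, where 7.2% of all tested genes did). Their summed level was 8219.9, 8529 and 8712 CPM in WT and 7389, 7361 and 7592 CPM in CB2 KO. All CB2 KO sums were below the WT sums. None passed edgeR's test. At an unadjusted p under 0.05, 10 were lower and 0 higher, where 4.27% and 4.33% of all genes were, and DESeq2 called 4 lower and 0 higher, where it called 1.39% and 1.19%. The smallest p-values were those of Slbp, which binds the stem-loop of histone RNAs (log2 fold change -0.33, SE 0.07, edgeR adjusted p = 0.267), of Rrm2, the ribonucleotide reductase subunit that limits nucleotide supply (-0.24), and of E2f8, a repressor of E2F targets (-0.72).

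Ratios between partner genes were looked at after the values of the genes had been seen. The ratio of Ccnb1 to Cdk1 CPM was 1.18 ± 0.096 in WT and 1.20 ± 0.092 in CB2 KO (SD, n = 3), and that of Ndc80 to Nuf2 was 1.03 ± 0.16 and 1.02 ± 0.10. Both ratios differed by less than the spread between replicates. Anln to Ect2 gave 0.554, 0.575 and 0.532 in WT and 0.294, 0.452 and 0.300 in CB2 KO. Smc4 to Ncapd2 gave 1.96, 1.47 and 1.38 in WT and 1.119, 0.978 and 1.08 in CB2 KO. These last ratios were the 2 of 12 computed whose groups did not overlap (14.1% of single tested genes did not overlap in either direction), and the other ratios overlapped. With 3 libraries against 3, an exact two-sided permutation test cannot go below 0.1, and no test was made.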
